A study of Mus musculus with 22 samples.

Results

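Clustered distal H3K27ac regions in BcorΔE9-10 myeloid progenitors were described from the peak lists of 3 ChIP-seq libraries. H3K27ac is histone H3 acetylated at lysine 27. Overlapping peaks of the 3 lists on chromosomes 1 to 19 were united, and a united region was kept where at least 2 lists held a peak in it and where it lay more than 2.5 kb from every annotated transcription start site (TSS). Kept regions at most 12500 bp apart were chained, and the members are the regions in chains of 3 or more. There were 1769 of them in 409 chains, out of 34063 united regions, 19162 with a peak in at least 2 lists and 5185 of those that were distal. Members thus made up 34.1% of the reproducible distal regions and 9.23% of all reproducible regions. The remaining distal regions were 1190 in 595 pairs and 2226 isolated ones, and the 13977 reproducible regions near a TSS are called TSS-proximal. The members were chosen by the peak calls and their distances, and chains are ranked by fold enrichment, so chain numbers, sizes and signal are given as description without a test.

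The cells were KL cells, which are lineage-negative, cKit-positive and Sca1-negative myeloid progenitors sorted from bone marrow of male C57BL/6 mice with the genotype scl-Cre-ERT +; Bcorfl/y. Tamoxifen at 1 mg per day for 5 days, begun at 3 to 6 months of age, activated a Cre recombinase expressed from a transgene with stem cell regulatory sequence of Scl (Tal1), and Cre cut out exons 9 and 10 of Bcor on the X chromosome. Bone marrow was taken 20 weeks later, and cells of 3 mice were used per the study's methods, while the labels only number the libraries as replicates 1, 2 and 3. The series holds 22 samples in 11 groups, of which 19 were not analysed here, among them all BcorWT samples, so no genotype was compared and all values describe cells that carry the deletion.

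H3K27ac is laid down by the acetyltransferases p300 and CBP on nucleosomes next to active promoters and active enhancers. Enhancers lie away from the TSS, bind transcription factors and raise the activity of a promoter that can be far off or inside a neighbouring gene. Groups of enhancers close together are common at genes that set the identity of a cell, and stitching neighbouring H3K27ac regions is the usual opening step in naming super-enhancers, although no cut that names super-enhancers was applied here. In myeloid progenitors such elements are known at genes of the transcription factors Runx1, Erg, Spi1 (PU.1) and Tal1. Bcor, the corepressor whose gene was deleted in part here, belongs to a variant Polycomb complex that represses genes.

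As examples of members at the base level, 6 windows of 200 bases around the summit of a region are printed. Each is from the region of the chain with the highest mean fold over the 3 libraries, read from the RefSeq GRCm38 genome on the + strand. Ppara, Erg, Supt4a and Anks1 name 4 of the 6 chains with the most signal, Etv6 (1) belongs to the list gene with the most chained regions, and Lmo2 (1) is shown for a Runx match. Capitals mark matches on either strand. The Runx motif searched was TGTGGTT, the C/EBP motif was TTGCNNA and the AP-1 motif was TGANTCA. The GATA motif was AGATAA, and the ETS factors were represented by the motif GAGGAAG.
Ppara, chr15:85671576-85671775: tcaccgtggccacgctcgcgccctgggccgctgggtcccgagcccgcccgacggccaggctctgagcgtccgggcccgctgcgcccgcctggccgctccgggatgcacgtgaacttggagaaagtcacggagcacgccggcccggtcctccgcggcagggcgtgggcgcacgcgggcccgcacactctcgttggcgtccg
Erg, chr16:95439592-95439791: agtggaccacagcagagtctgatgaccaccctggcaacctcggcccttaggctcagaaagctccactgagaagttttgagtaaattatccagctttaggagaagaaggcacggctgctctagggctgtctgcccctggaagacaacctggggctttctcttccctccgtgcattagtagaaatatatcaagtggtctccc
Supt4a, chr11:87749112-87749311: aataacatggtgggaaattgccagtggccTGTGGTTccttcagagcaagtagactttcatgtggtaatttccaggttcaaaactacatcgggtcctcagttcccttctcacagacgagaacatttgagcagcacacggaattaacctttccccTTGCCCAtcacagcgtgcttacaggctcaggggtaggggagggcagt
Anks1, chr17:28013135-28013334: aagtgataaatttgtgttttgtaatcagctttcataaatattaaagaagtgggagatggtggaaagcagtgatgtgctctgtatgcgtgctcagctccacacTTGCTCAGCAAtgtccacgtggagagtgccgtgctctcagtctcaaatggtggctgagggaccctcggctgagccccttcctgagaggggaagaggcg
Etv6 (1), chr6:134120320-134120519: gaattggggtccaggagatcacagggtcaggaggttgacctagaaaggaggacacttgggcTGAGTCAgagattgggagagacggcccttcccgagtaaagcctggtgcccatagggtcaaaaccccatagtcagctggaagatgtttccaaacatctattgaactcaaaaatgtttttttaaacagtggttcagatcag
Lmo2 (1), chr2:103945656-103945855: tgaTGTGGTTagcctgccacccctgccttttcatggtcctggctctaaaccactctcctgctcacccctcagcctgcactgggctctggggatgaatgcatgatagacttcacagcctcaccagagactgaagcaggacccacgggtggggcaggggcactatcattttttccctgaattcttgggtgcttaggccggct
The Ppara window was 77% G and C and held no match to the 5 motifs, and neither did the Erg window with 52% G and C. The Supt4a window held a Runx and a C/EBP match. The Lmo2 (1) window held a Runx match, the Etv6 (1) window an AP-1 match and the Anks1 window a pair of overlapping C/EBP matches. Among windows read in the same way but not printed, those of Sipa1l1 (1), Runx1 (1) and Tal1 held no match. The unprinted Ago2 window held a C/EBP match. The printed windows were picked, so they do not show how often members hold a match. A match is a description of the letters and does not show that a factor was bound.

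Depth was similar in the 3 libraries. The numbers of reads estimated from the deposited fold and p-values were 18.0 M, 18.9 M and 19.3 M in replicates 1, 2 and 3. This estimate assumes a mappable genome size and takes the shortest peak, 200 bp, as the fragment length. The lists held 22998, 25516 and 23310 peaks on the autosomes. A peak rested on at least 8 to 9 overlapping fragments at its summit, with a median of 17 to 21 by library. Fold enrichment is the authors' ratio of summit fragments to local background with 1 added to both counts, which makes it lower than the plain ratio. It was not scaled between libraries and was higher in replicate 3 in general, so ranks are given beside levels. In a bulk ChIP library, more cells with the mark and more mark per cell cannot be told apart.

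The chains were mostly small and compact. Of the 409 chains, 199 had 3 regions, 103 had 4, 49 had 5, 42 had 6 to 9, and 16 had 10 or more and together held 214 members. Chains spanned 1.22 to 74.1 kb with a median of 10.1 kb (quartiles 5.04 and 15.3 kb), and members covered a median of 23.8% of the span. A member was 206 to 3491 bp wide, with a median of 539 bp, against 478 bp for isolated regions and 699 bp for TSS-proximal regions. Gaps between neighbours had a median of 1211 bp, and 642 of 1360 gaps (47.2%) were at most 1 kb. Joining regions within 1 kb of each other before chaining left 763 members in 198 chains. The widest gap kept in a chain was 12494 bp and the narrowest gap that ended a chain was 12514 bp. The member closest to a TSS lay 2516 bp away, and the TSS-proximal region furthest from one lay 2499 bp away.

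A region had to be called in only 2 of 3 lists, and single libraries held the chains incompletely. All 3 lists had a peak in 878 of 1769 members (49.6%, Wilson 95% interval 47.3 to 52.0%), where 46.9% of all reproducible distal regions did. In 34 chains every region was called in all 3 libraries, and in 41 chains none was. At least 3 regions with a peak were found in 274 chains in replicate 1, 329 in replicate 2 and 326 in replicate 3, and in every library in 185 chains. No peak at all was called in 5 chains in replicate 1 and in 2 chains in replicate 2, and replicate 3 had a peak in every chain. Building the chains from a pair of libraries, with a peak required in both, gave 204 to 246 chains.

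The signal of a chain is the sum over its peaks of fold times length in bp. It ran from 1295 to 50523 with a median of 7270 (mean of 3 libraries), a smooth decline without a break in the plot of signal by rank. The 10 highest chains held 10.4% ± 0.914 (SD, n = 3) of all chain signal, and the highest 41 held 29.0% ± 1.32. Across the 409 chains, the Spearman correlation of chain signal was 0.660 for replicates 1 and 2, 0.743 for replicates 1 and 3, and 0.778 for replicates 2 and 3. These points share the rule that chose them and, within a library, its depth. The CV of a chain over the 3 libraries had a median of 17.2% in the highest 41 chains and 33.6% in the rest. Signal followed the highest fold in the chain (rho 0.708 across chains) and the number of regions (0.571) more than the span (0.390). Folds and the number of peaks enter the signal by its definition and the span does not, so this order was partly set by the definition. Replicate 3 was the highest library in 224 chains, replicate 2 in 111 and replicate 1 in 74.

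**Figure D1:**
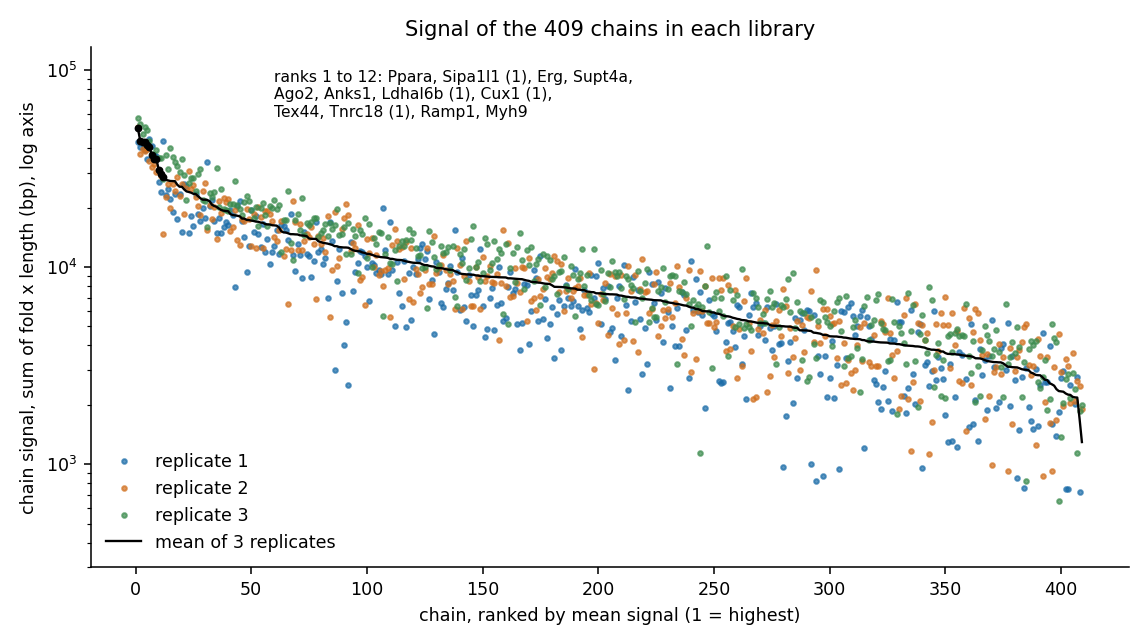
Signal (sum of fold times length in bp, log axis) of the 409 chains in each of the 3 libraries against the rank of the mean; points are single libraries, the line is their mean, and values of 0 are left out. The libraries spread more widely around the line at low ranks, and the 12 highest chains are named.

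Of the 12 chains with the highest mean signal, 9 were among the highest 12 in every library, and 17 chains were among the highest 12 in any library. The chain with the most signal lay between genes at chr15:85656988-85672243, upstream of Ppara, which encodes a nuclear receptor that turns on fatty acid oxidation genes. Its 3 regions had a signal of 43131, 51532 and 56906 in replicates 1, 2 and 3 (mean 50523 ± 6943, SD, n = 3), and it ranked 3, 1 and 1. Ppara itself lay 63.3 kb away, while the TSS of the long noncoding RNA Lncppara was 3.37 kb away and the let-7 microRNA gene Mirlet7c-2 was 34.4 kb away. Its region 3 was the widest of all members at 3491 bp and had folds of 8.47, 10.8 and 12.7. The chain ranked 2, Sipa1l1 (1), had a mean of 43637 ± 8387. The means of these 2 chains differed by less than the SD of either, so they could not be ordered. In replicate 1, the chains of Anks1 (44630) and Myh9 (43462) were above that of Ppara.

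Ranks 2 to 6 could not be ordered, since their means of 40844 to 43637 differed by less than the SD of each of these chains, which ran from 3759 to 8387. Sipa1l1, whose product activates the GTPase of Rap proteins, had 11 intronic regions over 25.7 kb and signals of 40569, 37215 and 53125. Erg, an ETS-family transcription factor that maintains stem cells, had 15 intronic regions over 40.9 kb, and its signals of 42276, 39834 and 47214 were the least variable of this group (mean 43108 ± 3759). The chain nearest to Supt4a, a subunit of an elongation factor of RNA polymerase II, held 4 regions within 7.68 kb and gave 38992, 38786 and 51425. It also lay 4.53 kb from Mir142, a microRNA gene of blood cells, and the nearest TSS of any kind was that of its host transcript Mir142hg at 3.21 kb. Its strongest region had the folds 14.7, 14.7 and 18.1 from 50, 49 and 59 fragments. Ago2, the Argonaute protein that cuts target RNAs, had 13 intronic regions with signals of 35367, 39877 and 49556. Anks1, an adaptor of Eph receptors, had 15 intronic regions and was the highest chain of replicate 1, with 44630, 34345 and 43558.

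The chain with the most regions was Cux1 (1), at chr5:136487923-136561975 inside the gene of a homeodomain transcription factor. Its 27 regions spread over 74.1 kb and ranked 8, 7 and 12 with signals of 36954, 33241 and 36208 (mean 35468 ± 1964). The highest fold of any of its regions was 5.46, 6.77 and 6.15, so this chain was high through the number of its regions. TSS-proximal regions lay inside the span of 37 chains, and of this one 4 did. The chain named Ldhal6b (1) for its nearest protein-coding TSS, 154 kb away, had all 16 regions inside Arid1b, which encodes a subunit of BAF chromatin remodellers. Its signals were 40866, 32187 and 37494.

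The remaining chains of the highest 12 reached their place in different ways. Tex44 had 4 intergenic regions, with the highest folds of 15.8, 13.4 and 14.5 and signals of 36641, 30227 and 39042. Tnrc18 (1) had 3 regions over 3.81 kb, which reached folds of 15.0, 15.9 and 20.8 and gave 26872, 30626 and 35927. Ramp1, a subunit that sets the ligand of calcitonin-type receptors, gave 24005, 28932 and 35873 from 6 regions. Myh9, the heavy chain of a non-muscle myosin, was the least stable, with 43462, 14724 and 27918 and ranks of 2, 68 and 26. Its mean of 28702 ± 14385 could not be told from that of the next chain, which lay 155 kb from Klf14 and 51.3 kb from the microRNA gene Mir29b-1 (27682 ± 8166). Ranking by summed fold or by summed length, in place of their product, left 7 of these 12 among the highest 12.

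Folds varied within chains. The strongest region of a chain exceeded the weakest by a median of 1.83 times (quartiles 1.47 and 2.25, range 1.04 to 6.12), and held a median of 50.5% ± 2.23 (SD, n = 3) of its chain's signal. Which region was strongest was less stable: in 123 of 409 chains (30.1%, 25.8 to 34.7%) it was the same one in all 3 libraries. In the Supt4a chain the order was stable, and the region nearest to Mir142hg had 4.40, 5.24 and 6.39 fold, well under the central one. In the Erg chain the 15 regions lay between 2.95 and 7.27 fold, and region 6 had the folds 6.37, 6.75 and 7.26, while region 4 had no peak in replicate 1 and 3.25 and 3.17 in replicates 2 and 3. Regions at the ends of chains had the median folds 4.31, 4.25 and 4.88 and inner ones 4.31, 4.25 and 4.76, so they differed by less than the spread between libraries.

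**Figure D2:**
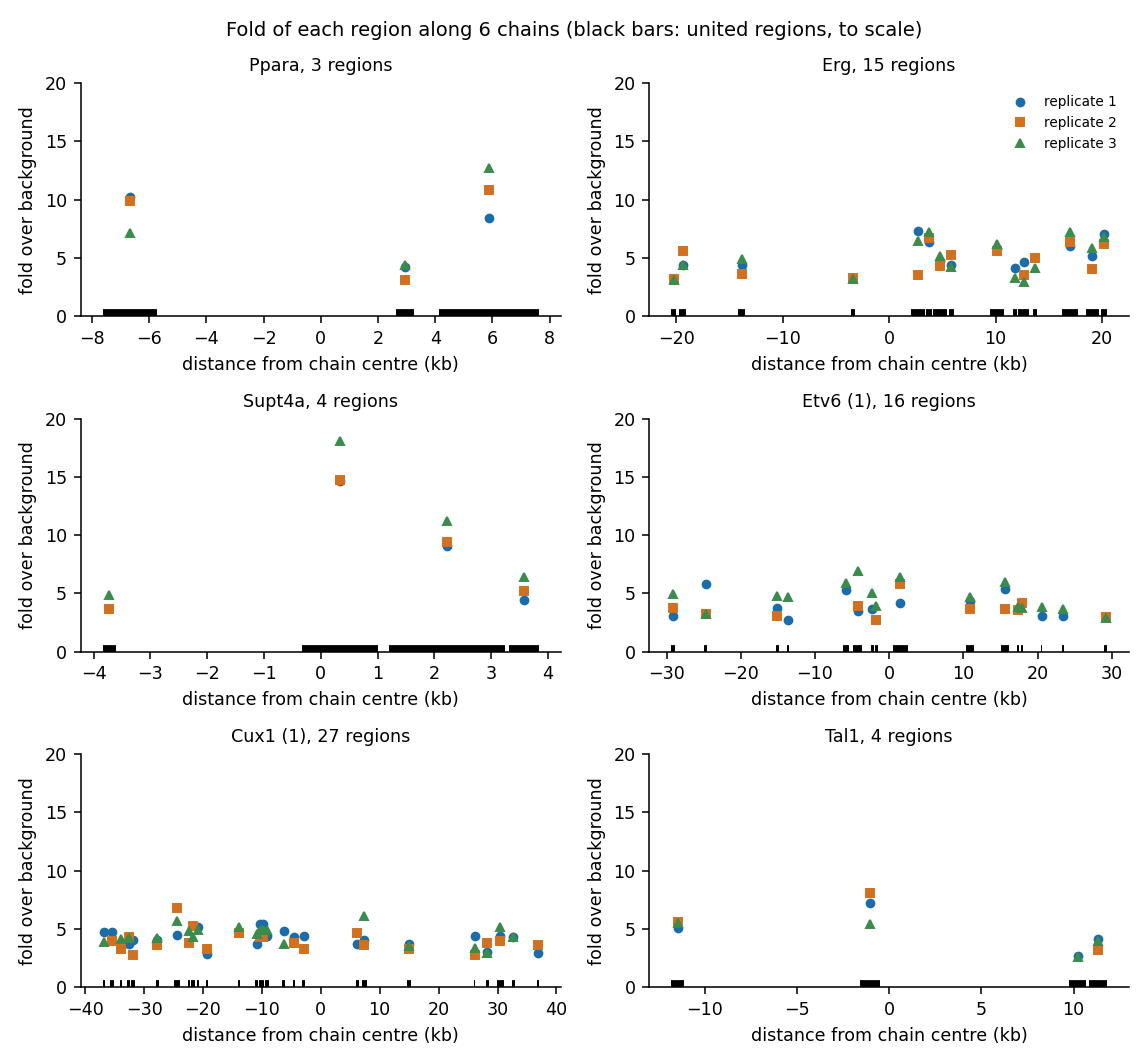
Fold over local background of each united region, in each of the 3 libraries, against its distance in kb from the centre of the chain, for 6 chains; black bars show the width of the regions to scale, and a missing symbol means no peak in that library. Supt4a and Ppara rise to 18.1 and 12.7 fold in few regions, while Cux1 (1) has 27 regions of at most 6.77 fold.

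The chains were also read by 4 lists of genes known in blood progenitors. The nearest gene of some chain was 11 of 30 autosomal transcription factor genes of blood progenitors, 2 of 18 receptor and adhesion genes, 1 of 7 genes that the study names as putative Bcor targets or for altered H2AK119ub, a Polycomb mark, and 1 of 18 chromatin and corepressor genes. Over all 20722 autosomal protein-coding genes, 357 (1.72%) were nearest to a chain. Within 100 kb of a chain there were 13, 2, 2 and 2 genes of these lists, and 5.63% of all protein-coding genes. Genes of the lists were chosen with earlier results of these data known, so the counts are a description. The study itself picked Tal1, Lmo2, Fos, Zfp36, Hoxa7 and Hoxa9 through super-enhancers in H3K27ac data of these cells. All of them are on the transcription factor list, so its count beside 1.72% is not independent of these data.

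Etv6, an ETS-family repressor needed by stem cells of adult bone marrow, had the most chained regions of the lists, 42 in 3 chains over 182 kb. Their summed signals were 62969, 71190 and 96617 in replicates 1, 2 and 3 (mean 76925 ± 17542), with the highest in replicate 3. Etv6 (3) was the most even of them, with 23350, 22739 and 24262, while Etv6 (1) went from 19822 in replicate 2 to 40012 in replicate 3. Runx1, whose product is the DNA-binding part of core-binding factor, had 13 intronic regions in 2 chains, 12.9 kb upstream and 10.8 kb downstream of the nearest of its annotated TSSs, with summed signals of 17914, 22377 and 30675. Runx3, a factor of the same family, had 9 intergenic regions in 2 chains with 22953, 10013 and 29077, and its libraries overlapped those of Runx1. Erg and Etv6 were the highest of the lists in all 3 libraries, and the libraries of Erg did not overlap those of Runx1.

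Tal1 and Lmo2 encode partners in a complex that bridges GATA factors and E-box sites. Lmo2 had 9 intergenic regions in 2 chains, 9.96 and 50.6 kb upstream of its TSS, with 15748, 20984 and 24515 in all. The Tal1 chain at chr4:115052396-115076049 had 4 regions and 15087, 13570 and 14580. Its region 2, which lay in an exon of Tal1, had folds of 7.20, 8.10 and 5.46 from 57, 67 and 49 fragments. Members in general had a median of 14 to 16 fragments. The local background there was 3.66, 3.66 and 3.95 times the genome-wide level, while that of region 1 was 1.00. At regions 3 and 4, downstream of the gene, the background was 3.76 to 6.03 times that level in the libraries with a peak. The Cre transgene of these mice carries Scl (Tal1) regulatory sequence, and the part of the transgene in the Tal1 values was not tested.

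The other factors had smaller chains. Spi1 (PU.1), which drives myeloid fate, had 5 regions around its TSS with 8073, 7517 and 8040, the smallest SD of the named list genes (mean 7877 ± 312). Cebpb, a C/EBP factor of stress granulopoiesis, had 6 regions in 2 chains, with 11239, 22663 and 22341. Fos, a part of the AP-1 factor, gave 10921, 9190 and 11344 from 4 regions upstream of the gene. Zfp36, an RNA-binding protein that promotes mRNA decay and was listed with the factors, gave 12447, 7414 and 11499. Fli1, an ETS factor close to Erg, had 3 intronic regions with 968, 7782 and 6273, and this chain was lost when replicate 2 or replicate 3 was left out and both others had to hold a peak. In the same way all Runx3 chains were lost without replicate 1 or without replicate 3. No chain had Gata2, Cebpa, Gfi1, Myc, Meis1, Hoxa9 or Ikzf1 as its nearest gene, although the promoter of each had a peak in all 3 libraries. With another method, the study associated Hoxa7 and Hoxa9 with super-enhancers in H3K27ac data of these cells. Regions within 2.5 kb of any TSS cannot be members here, so the lack of a chain does not show a lack of clustered H3K27ac. Myb, a factor needed for definitive blood formation, and Cebpe, which acts in late granulocytes, had a chain within 100 kb that was nearer to another gene.

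Outside the factors, few genes of the lists had a chain. Kit, the stem cell factor receptor by which these cells were sorted, had 5 intronic regions over 15.3 kb, with 9463, 5822 and 5242, and its chain was lost without replicate 1. Cd47, a surface protein that inhibits phagocytosis, gave 4473, 9145 and 7858, so that the libraries of both genes overlapped, and its chain was lost without replicate 2 or without replicate 3. Hdac7, a class IIa histone deacetylase, had 5 intronic regions and 13906, 19282 and 16138. Bahcc1 encodes a chromatin protein, and the study's text names it for altered H2AK119ub but not among the putative targets. Its chain ranked 398 of 409 with 1389, 1670 and 4146. None of its 3 regions had a peak in all libraries, and the chain was lost whichever library was left out. None of the 6 putative targets named in the study's text was nearest to a chain. The study reports more putative targets than these, and the list does not cover all of them. Hoxa7, Hoxa9, Prex1, Zfp36l1 and Calm2 had no chain within 100 kb, and Clic4 had one that was nearer to another gene. All 7 genes of the list had a peak near their TSS in each library, as had 44.6% of all protein-coding genes.

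**Figure D3:**
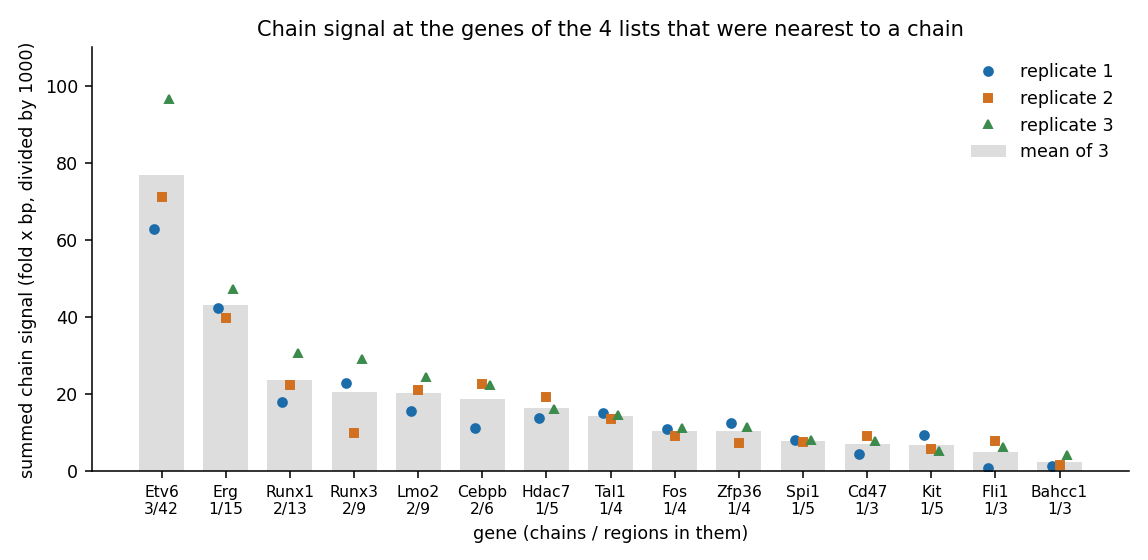
Summed chain signal (fold times bp, divided by 1000) at the 15 list genes that were nearest to a chain; points are the 3 libraries and bars their mean, with the number of chains and regions under each gene. Etv6 and Erg stand highest in all 3 libraries, and the points of most other genes overlap.

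Markers were used to check the sorted population. Of 9 myeloid progenitor markers, Kit and Spi1 were nearest to a chain, Mpo (myeloperoxidase) had a chain within 100 kb, and 7 had an acetylated promoter, that is a TSS-proximal peak, in all 3 lists, against 1.72%, 5.63% and 44.6% of all protein-coding genes. A chain was nearest to 0 of 9 erythroid and megakaryocyte, 0 of 6 mature myeloid, 0 of 8 lymphoid, 0 of 3 stem cell and 0 of 8 non-haematopoietic markers. Within 100 kb of a chain there was 1 of the lymphoid markers and none of the other lists. Beside 1.72% and 5.63% of all genes, lists this short do not tell the cell types apart by their chains. A TSS-proximal peak in all 3 libraries was found at 2 of the erythroid and megakaryocyte markers, Itga2b and Gp9, at 1 of the lymphoid markers and at none of the mature myeloid, stem cell and non-haematopoietic ones.

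Members lay in introns more often than isolated regions did. The strongest summit fell within introns of protein-coding genes in 1359 of 1769 members (76.8%, Wilson 95% interval 74.8 to 78.7%), 57.5% of paired and 55.5% (53.4 to 57.5%) of isolated regions. It was in an exon in 1.70% of members and 4.31% of isolated regions, and between genes in 21.5% and 40.2%. Regions of 1 chain share their gene and the intervals cover counting error only, so the difference of 21.3 percentage points has no test across libraries. With only peaks of a −log10 q of at least 5 it shrank to 2.91 points, from 220 members and 1164 isolated regions, while the other alternatives gave 17.1 to 25.1 points. All regions were inside 1 gene in 292 chains, between genes in 89 and mixed in 28. In 256 chains that gene was also the nearest by TSS, and in 36 it was another one, as for Arid1b. The gene around an intronic member had a median length of 125 kb, that around an intronic isolated region 107 kb, and autosomal protein-coding genes in general 17.6 kb, so long genes were common in both classes. The nearest protein-coding TSS was a median of 12.3 kb from the chain and at most 191 kb, within 10 kb for 178 chains and beyond 50 kb for 62. The nearest TSS of any kind belonged to a noncoding transcript for 126 chains.

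The nearest genes usually had an acetylated promoter. A TSS-proximal peak in all 3 libraries was found at 298 of the 357 genes nearest to a chain (83.5%, 79.3 to 87.0%), at 1333 of 1813 genes nearest to an isolated region (73.5%, 71.4 to 75.5%) and at 44.6% of all protein-coding genes. With the stricter q, applied to the promoter peaks as well as to the chains, the share near chains was 72.1%. The shares for isolated regions and for all genes were not counted at that q, so 72.1% cannot be set against them. All chains were assigned to genes by distance alone, and no expression value was analysed here.

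To test the members on data that did not choose them, chains were rebuilt from each pair of libraries, and the library left out was then read. In replicate 1, 693 of 994 clustered regions had a peak (69.7%) against 1139 of 1789 isolated ones (63.7%). In replicate 2 the shares were 78.5% and 73.7%, and in replicate 3 they were 79.9% and 73.3%. Clustered regions were thus found again more often in 3 of 3 libraries, by 6.05, 4.80 and 6.66 percentage points (mean 5.84 ± 0.949, SD, n = 3). The exact sign-flip permutation test gave p = 0.25, two-sided, which is the smallest p that 3 libraries allow. Each difference draws on all 3 libraries, so the 3 values are not independent, and neither the SD nor the test allows for this. Regions in pairs had 69.1%, 80.9% and 79.1%, close to the clustered ones. Members were wider than isolated regions, with medians of 539 and 478 bp over all libraries. Width was not matched, so its part in the difference was not tested. With regions within 1 kb joined, the mean difference was 3.14 points. Where a peak was found, clustered regions were no stronger: the median fold was 4.67, 4.63 and 5.20 for clustered and 4.74, 4.72 and 5.41 for isolated regions. The ratio was 0.986, 0.980 and 0.963 (mean 0.976 ± 0.0121; exact sign-flip permutation p = 0.25, two-sided), and it turned above 1 when regions without a peak were set to a fold of 1 (1.04), when only peaks with a −log10 q of at least 5 were used (1.06) and with a TSS distance of 1 kb (1.003).

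**Figure D4:**
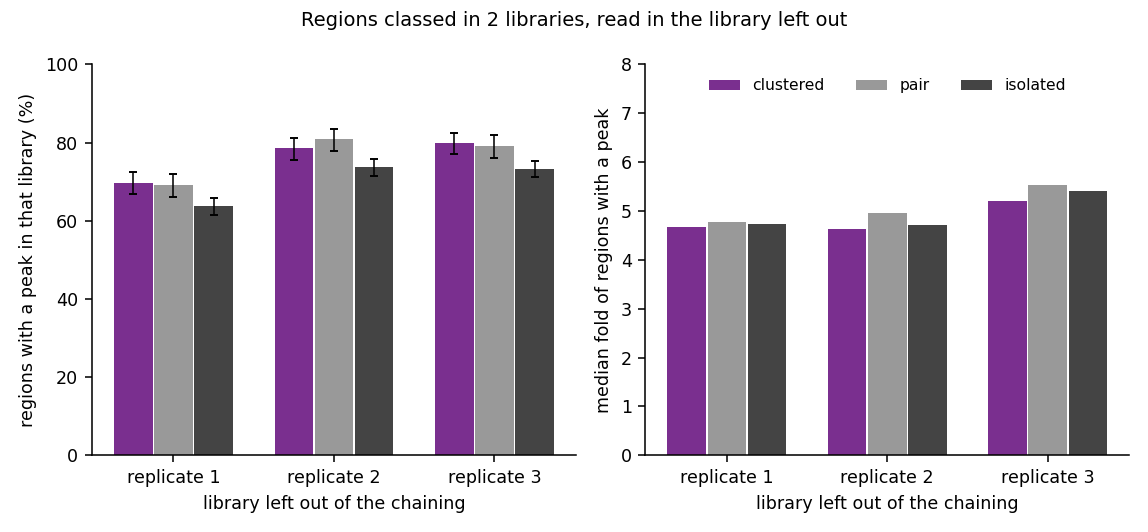
Regions classed as clustered, paired or isolated in 2 libraries and read in the library left out. Left, the percentage with a peak there, with Wilson 95% intervals as error bars; right, the median fold of those with a peak. Clustered regions stand 4.80 to 6.66 points above isolated ones on the left, and their median fold is slightly lower on the right.

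Over all members the folds were likewise those of other distal regions. The median fold was 4.31, 4.25 and 4.88 for members and 4.44, 4.30 and 4.67 for isolated regions in replicates 1, 2 and 3, against 7.10, 7.22 and 8.13 for TSS-proximal ones. Members held 36.1% ± 0.558 (SD, n = 3) of the signal of reproducible distal regions, close to their 34.1% of the regions. The local background was a median of 1.19 times the genome-wide level for members and 1.15 times for isolated regions, and it exceeded 2 times in 85 members (4.80%) and in 3.91% of isolated regions. The highest was at the chain 41.1 kb from Pdia4, the last of 409, where it was 6.42 to 8.40 times the genome-wide level and replicate 1 had no peak.

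Base composition, read in windows of 300 bases around the summits, set the distal regions apart from TSS-proximal ones. Mean GC was 50.5% in members, 50.4% in isolated and 62.0% in TSS-proximal regions. A member held 4.84 CpG on average, an isolated region 6.15 and a TSS-proximal region 21.7. At least 10 CpG were found in 125 members (7.07%), 14.0% of isolated and 75.6% of TSS-proximal regions. The CpG-rich window of the Ppara chain printed above was therefore unusual among the members.

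Motifs of 9 factor families were counted in the same windows on both strands, beside the 31365 RefSeq GRCm38 promoters of the autosomes, which are of the same length. AGATAA, bound by GATA factors, was in 11.0% of members, 11.7% of isolated regions, 5.54% of TSS-proximal regions and 11.2% of promoters. TGTGGTT, bound by Runx factors, was in 7.12%, 6.74%, 3.43% and 5.32%. TGANTCA, bound by AP-1, was in 8.88%, 8.76%, 3.94% and 7.85%. These shares were higher in members than in TSS-proximal regions and the Wilson 95% intervals did not overlap, but members and isolated regions had overlapping intervals. GAGGAAG, bound by ETS factors such as Erg, was less frequent in members than in isolated regions (14.5% against 17.1%, difference −2.59 points, 95% interval −4.86 to −0.32), and with 1 member per chain the difference was −0.246. CAACNG, bound by Myb, also was (36.2% against 39.7%, difference −3.48, −6.50 to −0.45). The intervals of the other differences contained 0, for TTGCNNA (C/EBP), TGATTNA (Hox and Meis), CAGNTG (E-box) and AGGNGGC (CTCF core). All of these intervals treat regions of 1 chain as independent and are not adjusted for the 9 motifs compared, and those of ETS and Myb ended close to 0. With 1 member per chain the Hox and Meis difference went from −0.97 to −4.54 points, the Myb difference was −2.79 and the CTCF core difference turned from 1.46 to −0.217. This alternative was chosen after seeing the data. Keeping 1 member also changes which regions are compared, so these moves cannot be assigned to dependence alone. CAGNTG was in 59.8% of members and TTGCNNA in 36.6%, and these loosely spelled motifs were also in 51.4% and 36.7% of promoters. No match to the GATA, ETS, Runx, C/EBP and AP-1 letters was found in 39.6% of members. The share was close to this in isolated (38.8%) and paired regions (36.1%), and 56.6% in TSS-proximal regions. All 5 were found among the members of 12 of the 409 chains, and a chain with more regions has more windows in which to hold them.

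**Figure D5:**
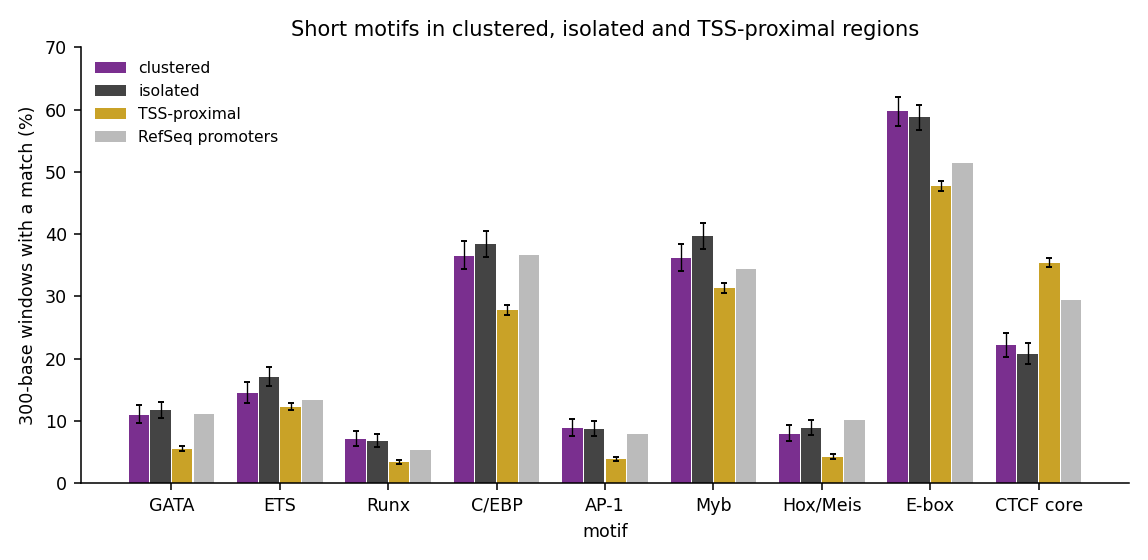
Percentage of 300-base windows with at least 1 match to each of 9 motifs in clustered, isolated and TSS-proximal regions (error bars are Wilson 95% intervals) and in RefSeq promoters. Clustered and isolated regions are nearly level, at 11.0% and 11.7% for GATA, and both differ from TSS-proximal regions at 5.54%.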

How the data were processed

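H3K27ac ChIP-seq (antibody AB4729) was analysed in 3 libraries of BcorΔE9-10 KL cells. Per the labels and methods, the authors trimmed reads with cutadapt 1.7, used Bowtie2 for alignment to GRCm38, discarded duplicates and ran MACS2 2.1.1 on each library, and the control and settings are not given in the sources used here. The deposited peak lists hold a score, the fold (a ratio to local background), the −log10 p-value, the −log10 q-value and the summit offset. All have q under 0.05. Here, rows of 1 interval were merged, keeping the highest fold, and regions were united at an overlap of 1 bp. TSSs and genes came from GENCODE M21. Summit fragments were recovered from fold and p, which solved 100% of rows within a tolerance of 0.001, against 0.901 to 1.35% with shuffled p-values. Depth was then estimated from the background level with an assumed genome size and fragment length, which this check does not cover. Isolated regions served as comparison, with exact sign-flip permutation tests over libraries and Wilson 95% intervals, which cover counting error only. The scripts, in Python 3.11.15 (pandas 2.3.3, scipy 1.17.1), were tested on simulated peaks. Alternatives changed the chaining and TSS distances, peak threshold, list number, libraries and windows.

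The text names the 12 chains with the most signal, the chain with the most regions and each list gene nearest to a chain. The members and lists were chosen with earlier results of these data known. Chains on the X chromosome lie outside the rule, and 19 samples were not analysed here.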

Additional observations from a re-analysis of the deposited data

Results flagged for a closer look

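The X chromosome was outside the rule, and the same steps found chains there, which no comparison above uses. It held 5 chains with 23 of its 46 reproducible distal regions, or 2.92 chains per 100 Mb against 16.6 on the autosomes. All mice were male, so most of the X chromosome differs from the autosomes in copy number. The part of copy number in these rates was not tested. A pair of the X chains lay at Bcor itself, the gene whose exons 9 and 10 were deleted. They held 5 regions over 15.5 kb and 7 regions over 33.2 kb. The others lay 37.3 kb from Ddx3x, an RNA helicase gene, 16.7 kb from Bclaf3 and 10.6 kb from Mid1, which encodes a ubiquitin ligase that binds microtubules. Peaks in these regions rested on 9 to 91 fragments. No control library was analysed here, so these values have no comparison with a background sample.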

How the results depend on the processing

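Of 145 alternative values, 105 stayed within the limits set for them, 37 moved and 3 reversed. The number of members was 1146 with chaining within 5 kb, 458 with a peak required in all 3 lists (121 chains), 220 with a −log10 q of at least 5 (63 chains) and 763 with regions within 1 kb joined (198 chains), an alternative chosen after seeing the data. Leaving out a library, with a peak required in both others, gave 802 to 994 members, 204 to 246 chains, an intronic share of 71.5 to 75.4%, a median width of 546 to 555 bp and a mean rho of 0.768 to 0.838. The intronic share was 73.5% with chaining within 20 kb, 79.0% beyond 5 kb of a TSS, 71.9% with protein-coding TSSs only, 72.1% with all 3 lists, 54.5% with the stricter q and 81% with regions joined, and isolated regions had 51.6 to 57.1% over the alternatives. The list genes with a chain fell from 15 to 8 with all 3 lists and 7 with the stricter q, and only Erg and Etv6 of them kept a chain under all 11 ways of building chains. With all 3 lists the median width was 723 bp. With the stricter q it was 688 bp, the share of nearest genes with a promoter peak, held to the same q, was 72.1% and the mean rho 0.612. Ranking by summed fold gave a mean rho of 0.655 and by number of peaks 0.580, and summed fold and summed length each kept 7 of the highest 12 chains. The held-out share difference stayed above 0 in all alternatives, from 2.74 points with the stricter q to 7.15 with chaining within 5 kb. The fold ratio reversed to 1.003 with a TSS distance of 1 kb, to 1.06 with the stricter q and to 1.04 with a fold of 1 where no peak was called. The motif differences moved for Runx, to −1.40 points with windows of 500 bp. With 1 member per chain, also an alternative chosen after seeing the data, they moved for ETS, to −0.246, and for Hox and Meis, to −4.54. The causes were not tested. No paired analysis was possible because 1 group was analysed.

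The smallest p that 3 libraries allow is 0.25. The median member had 14 to 16 fragments at its summit, against 8 to 9 at the weakest peak called, so absence from a list does not show absence of the mark. Fold was not scaled between libraries, the nearest gene need not be the target, and no BcorWT library was analysed here.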

Other observations

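Several genes were nearest to more than 1 chain: 33 genes had 2 chains, 6 had 3 and 2 had 4 or more. Cux1 had 5 chains with 48 regions over 232 kb, and their summed signals were 74679, 86486 and 90772 in replicates 1, 2 and 3. Cmip, which encodes the c-Maf-inducing protein, had 4 chains with 22 regions and 29517, 48261 and 52275. Replicate 1 was the lowest library at both genes. Among those with 3 chains, Zfp36l2, an RNA-binding protein of mRNA decay, gave 35115, 37132 and 45574 from 19 regions, and Med13l, a subunit of the Mediator kinase module, gave 30634, 29230 and 36059 from 20. Irf2bp2, a corepressor that binds IRF2, varied most of the 3-chain genes, with 13853, 33275 and 49711 from 12 regions.

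Chains were unevenly spread over the autosomes, from 7.72 per 100 Mb on chromosome 18 to 31.9 on chromosome 11, where isolated regions had 93.7 and 145 per 100 Mb.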
